A study of Mus musculus with 20 samples.

Results

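The comparison set intestinal epithelial cells of mice that lacked the receptor TLR3 or carried a mutant adaptor TRIF, averaged as 1 arm, against wild type cells, and asked which genes moved alike when either component was lost. Its members were chosen by genotype alone: 4 Trif LPS/LPS arrays, 4 Tlr3 KO arrays and 4 wild type arrays, 12 of the 20 single-colour arrays in the series. A further 4 Tlr4 KO arrays served as the check on specificity, so that 16 arrays entered the analysis. Every group came from healthy 28-day-old mice labelled C57BBL6, with no treatment, and each array held the RNA of 1 animal. Trif LPS/LPS mice, labelled Trif mut, are homozygous for the LPS allele of the TRIF gene, whereas the receptor lines are labelled KO, and no crossing scheme or littermate status was given. The epithelium was released with EDTA and cleared of other cells by repeated sedimentation, with fewer than 5% CD45+ cells by flow cytometry according to the labels, and the gut region was not stated.

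TLR3 is an endosomal receptor for double-stranded RNA. It signals only through TRIF, encoded by Ticam1, which recruits TRAF proteins and the kinases TBK1, IKK-epsilon and RIPK1, and so turns on IRF3, NF-kappaB, type I interferon, chemokines and, under some conditions, cell death. TLR4, the receptor for lipopolysaccharide, also uses TRIF after it is taken up into endosomes, but signals from the cell surface through MyD88. In the intestine TLR3 is known as a receptor of the epithelium, a tissue that renews itself from crypt stem cells through dividing progenitors to absorptive and secretory cells.

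Levels are given on the log2 scale as the array signal relative to that array's own 75th percentile, so that 0 is the 75th percentile and 1 unit is a doubling. A probe was well above background where the scanner software called it so, and a call means an adjusted p under 0.05 in limma over 20033 features, 1 probe for each gene or unnamed transcript. Between 64.7% and 73.4% of probes were well above background on each of the 16 arrays. The subtracted percentile itself lay between 9.58 and 9.84 (log2) on wild type arrays, 9.32 and 9.54 on the mutant and Tlr3 KO arrays, and 9.61 and 9.78 on Tlr4 KO arrays. Each of the 4 slides held 1 array of each genotype, with the genotypes at the same position throughout. The mean log2 signal of 4 Y-linked genes exceeded Xist on 3 of 4 Trif mutant arrays (replicates 1, 2 and 3), on 1 of 4 Tlr3 KO arrays (replicate 3), and on no wild type or Tlr4 KO array. Leaving out those 4 arrays leaves 1 Trif mutant array (replicate 4) and 3 Tlr3 KO arrays, so Trif values given "without the Y-signal arrays" come from 1 array, which is assumed to vary like the other groups. A call can be lost there because 1 array gives little precision, so a lost call alone does not show that the array lacked the change. The Trif value is given below for some of the calls that ended in that fit. Where none is given, the call need not have held.

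The targeted genes were read first. On wild type arrays Tlr3 (probe at chr8:46482009-46482068, mm9) stood at -1.62, -1.27, -1.47 and -1.47, and on Tlr3 KO arrays at -8.79, -8.26, -8.37 and -8.49. Tlr3 was not well above background on any Tlr3 KO array, which placed it at least 57.1-fold lower than wild type, and it was not called in the Trif mutants (difference 0.13). Ticam1 (chr17:56409285-56409344) stood at 1.25, 1.40, 1.60 and 1.31 in wild type, at 2.15, 2.23, 2.19 and 1.67 in Trif mutants and at 1.83, 2.15, 2.05 and 1.97 in Tlr3 KO. All 8 arrays of the arm lay above all 4 wild type arrays, a rise of 0.64 ± 0.11 (SE; adjusted p = 0.00038). The Ticam1 transcript therefore checks no label, since the LPS allele need not lower it. On the 1 Trif mutant array left without the Y-signal arrays, the lowest of its group, the rise was 0.27 (adjusted p = 0.279). Neither Tlr4 probe was well above background on any wild type or Tlr4 KO array, so that the Tlr4 KO label had no check in its own transcript.

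Many genes moved in the same direction in Trif mutants and in Tlr3 KO. The mean of both genotypes differed from wild type for 10232 features (51.1% of those tested), 6797 higher and 3435 lower. Called the same way in each genotype alone were 5864 features (29.3%), made up of 3677 that rose and 2187 that fell, while 134 (0.669%) were called in opposite directions, 92 of them higher in Trif mutants (0.459%). The ranges of the 8 arm arrays and the 4 wild type arrays did not overlap for 4984 features (24.9%), and those of the arm and the 4 Tlr4 KO arrays for 3330 (16.6%). Both single comparisons behind the shared calls use the same 4 wild type arrays, so the count of 5864 is the one the rule fixes and has no test of its own. In Trif mutants alone 48.6% of features were called (31.5% higher and 17.1% lower), in Tlr3 KO 42.7% (27.5% higher and 15.2% lower), and in Tlr4 KO 13.7% (10.2% higher and 3.49% lower). The arm differed from Tlr4 KO for 46.6% of features. Because a bulk preparation was measured, fewer cells of a type and less RNA per cell cannot be told apart in any of these differences.

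The split between rises and falls depended on the scaling. The median over all features was 0.20 above wild type for the arm and 0.01 for Tlr4 KO. With quantile normalization the arm's median was 0.06 and the shared calls divided into 2456 rises and 2696 falls, and with each array's median as its zero the median was 0.02 with 1753 rises and 3008 falls. With normexp background correction the median was 0.35, with 832 rises and 1104 falls. Rises of about 0.20 are therefore no larger than the shift of the median feature.

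The Tlr4 knockout divided the shared calls unevenly. Of the falls, 1939 (9.68% of features tested) were also lower in the arm than in Tlr4 KO and 101 (0.504%) fell in Tlr4 KO too. Of the rises, 2070 (10.3%) were also higher in the arm than in Tlr4 KO and 1319 (6.58%) rose in Tlr4 KO too, so that 1420 features in all (7.09%) were shared by the 3 lines. Each genotype on its own stood apart from Tlr4 KO for 1250 of the rises (6.24%) and 1587 of the falls (7.92%). Features that rose in all 3 genotypes were mostly dim and poorly annotated, with a median level of -2.63 against -1.25 over all features and a standard gene symbol for 33.9% against 75.5%. Rises apart from Tlr4 KO had a median level of 1.59 and a standard symbol for 80.4%. Among 2187 shared falls the median differences from wild type were -0.99 in Trif mutants, -0.84 in Tlr3 KO and -0.12 in Tlr4 KO, and among 3677 shared rises they were 0.74, 0.72 and 0.30. Where the falls differed in size between Trif mutants and Tlr3 KO (353 features), the Trif mutants had the larger change in 324. Where the rises differed (650 features), the Trif mutants had the larger change in 289 and Tlr3 KO in the rest.

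**Figure D1:**
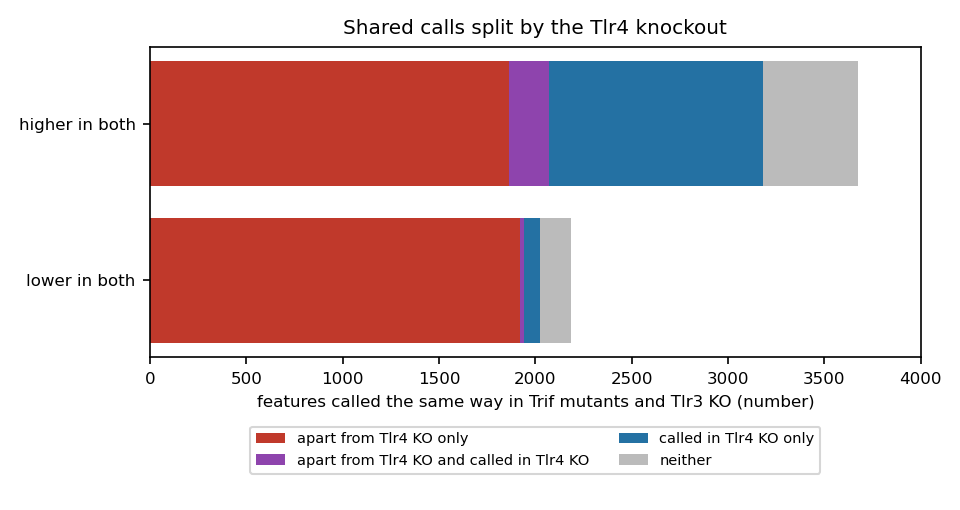
Number of features called the same way in Trif mutants and in Tlr3 KO against wild type (x axis), for rises and falls, coloured by whether the arm also differed from Tlr4 KO and whether Tlr4 KO was itself called against wild type in the same direction. Of the falls 1921 were apart from Tlr4 KO only and 83 were called in Tlr4 KO only, and of the rises 1862 and 1111.

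Cell division genes fell in both genotypes. Of 48 measured genes of the cell cycle and DNA replication list, 45 fell in both genotypes, none rose, and 44 were also lower than in Tlr4 KO, beside 10.9% of all features that fell in both. The list's median difference from wild type was -2.16 in Trif mutants, -1.31 in Tlr3 KO and -0.12 in Tlr4 KO, against medians over all features of 0.19, 0.20 and 0.01. Relative to the wild type mean, the list's median ranged from -0.14 to 0.23 on wild type arrays, from -3.11 to -1.09 on Trif mutant arrays, from -1.78 to -0.84 on Tlr3 KO arrays and from -0.57 to 0.14 on Tlr4 KO arrays. All 8 arrays of the arm thus lay below all 8 arrays of wild type and Tlr4 KO. Within the 4 slides the arm's median difference was -1.68, -2.40, -2.15 and -0.93. Bub1, Cenpe and Ttk, mitotic checkpoint and motor genes, were the members not called in both.

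Promoters of 3 shared falls are shown because the mitotic genes moved together: Cdk1, the kinase that drives entry into mitosis, and Ccnb1 and Ccnb2, its cyclin partners. Each is the 150 bases upstream of the transcription start from RefSeq on GRCm38.p6, read on the minus strand (chr10:69352913-69353062, chr13:100786487-100786636 and chr9:70421555-70421704), with the CCAAT box in capitals, CCAAT or its reverse complement ATTGG.
Cdk1: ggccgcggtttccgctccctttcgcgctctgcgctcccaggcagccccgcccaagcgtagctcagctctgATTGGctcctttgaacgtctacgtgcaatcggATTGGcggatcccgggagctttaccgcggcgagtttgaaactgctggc
Ccnb1: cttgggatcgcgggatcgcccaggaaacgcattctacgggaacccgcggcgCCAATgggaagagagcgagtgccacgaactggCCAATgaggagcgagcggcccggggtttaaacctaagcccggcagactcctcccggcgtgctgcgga
Ccnb2: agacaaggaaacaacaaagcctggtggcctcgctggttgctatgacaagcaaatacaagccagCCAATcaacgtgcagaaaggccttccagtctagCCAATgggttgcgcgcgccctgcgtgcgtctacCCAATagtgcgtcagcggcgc
The windows of Cdk1 and Ccnb1 held 2 matches each and that of Ccnb2 held 3. In the 250 bases before the start, searched on both strands, CCAAT occurred in 30 of 43 windows (69.8%) of the 40 list members with a promoter in the table, against 33.8% of all 32851 windows. The letters TTTGAA, the cell cycle homology region, occurred in 10 of those 43 windows (23.3%) against 16% of all. A match describes the letters in the window and was not tested as a binding site.

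Cdk1 (chr10:68805423-68807832) stood at 1.15, 0.96, 0.79 and 0.80 in wild type and at 1.01, 1.31, 0.97 and 0.38 in Tlr4 KO. In Trif mutants it stood at -2.14, -3.69, -3.15 and -0.61, and in Tlr3 KO at -0.05, -1.08, -1.20 and -0.18. Every array of the arm was below every wild type and Tlr4 KO array, and the fourth Trif mutant array lay within the Tlr3 KO range. The arm differed from wild type by -2.44 ± 0.43 (SE; adjusted p = 0.00043), and the fall was larger in Trif mutants (-3.32) than in Tlr3 KO (-1.55), with a difference between them of -1.77 ± 0.50 (adjusted p = 0.0211). The call in Tlr3 KO was lost without wild type replicate 1 (adjusted p = 0.0582), Tlr3 KO replicate 2 (0.0655) or Tlr3 KO replicate 3 (0.0674), and 1 other Cdk1 probe passed in Trif mutants (-1.67) but not in Tlr3 KO (-0.29, adjusted p = 0.407). Mcm5, a subunit of the replicative helicase, differed from wild type by -3.09 in Trif mutants, -1.68 in Tlr3 KO and -0.20 in Tlr4 KO, and Aurkb, a kinase of chromosome segregation, by -3.08, -1.65 and -0.17. The Tlr3 KO call of Aurkb was lost without the same 3 arrays (adjusted p up to 0.0659), and its Trif value without the Y-signal arrays was -1.18 (adjusted p = 0.0522). Ccnb1 lost its Tlr3 KO call without Tlr3 KO replicate 2 or 3 (adjusted p up to 0.0564), as did Ccnb2 (0.0781 and 0.0747) and without wild type replicate 1 (0.0633), with a Trif value of -0.88 (adjusted p = 0.132) without the Y-signal arrays. The count of 45 falls in the list became 26 without wild type replicate 1, 25 without Tlr3 KO replicate 2, 23 without Tlr3 KO replicate 3, and 18 without the 4 arrays in which Y-linked signal exceeded Xist.

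Genes of ribosome biogenesis fell with them. Of 34 measured genes of the Myc and ribosome biogenesis list, 32 fell in both genotypes, beside 10.9% of all features. All 32 were also lower than in Tlr4 KO, beside 9.68% of all features that did both. Polr1c and Odc1 were the members not called in both. The list's medians were -1.89 in Trif mutants, -1.20 in Tlr3 KO and -0.18 in Tlr4 KO, and the count stayed between 30 and 33 under each scaling, each left-out array and the removal of the 4 arrays above. Myc, the transcription factor that raises ribosome production (chr15:61821516-61821576), stood at 1.71, 1.05, 1.19 and 1.56 in wild type, at -0.33, -1.99, -1.92 and -0.10 in Trif mutants, at -0.10, -0.63, -0.89 and 0.24 in Tlr3 KO and at 1.40, 1.20, 1.01 and 0.61 in Tlr4 KO. The 8 arrays of the arm lay below the other 8, with a difference from wild type of -2.09 ± 0.34 (adjusted p = 0.00025) and from Tlr4 KO of -1.77 (adjusted p = 0.0011). Srm, which makes the polyamine spermidine, stood at 2.00, 0.98, 1.50 and 1.73 in wild type, at -1.24, -2.35, -1.80 and -1.18 in Trif mutants, at 0.30, -0.51, -0.21 and 0.37 in Tlr3 KO and at 1.52, 1.47, 1.42 and 0.56 in Tlr4 KO. Its arrays formed 3 tiers that did not overlap, with wild type and Tlr4 KO highest and Trif mutants lowest, and Trif mutants were below Tlr3 KO by -1.63 ± 0.31 (adjusted p = 0.0022). Cad, which starts pyrimidine synthesis, and Dkc1, which modifies ribosomal RNA, differed from wild type by -2.81 and -2.52 in Trif mutants and by -1.88 and -1.74 in Tlr3 KO, though 1 other probe of Cad did not share the sign of its fall. The sequence CACGTG, the E-box bound by MYC, was found in 1 of 31 promoter windows of the list (3.23%) against 6.02% of all.

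Markers of crypt stem cells also fell. Of 22 measured, 15 fell in both genotypes, 14 of them apart from Tlr4 KO, beside 10.9% and 9.68% of all features. None rose in both, and the medians were -0.99 in Trif mutants, -0.95 in Tlr3 KO and 0.04 in Tlr4 KO. Olfm4, a secreted crypt base protein (chr14:80421539-80421598), stood at 2.01, 1.51, 1.05 and 1.17 in wild type, at -1.52, -2.79, -3.38 and 0.31 in Trif mutants, at -0.30, -1.12, -0.99 and 0.86 in Tlr3 KO and at 2.14, 2.48, 1.95 and 1.58 in Tlr4 KO. The arm and the other genotypes did not overlap, and the fourth array of each arm genotype was the highest of its group. The arm's difference was -2.55 ± 0.55 from wild type (adjusted p = 0.0015) and -3.15 from Tlr4 KO (adjusted p = 0.00057). The Tlr3 KO call was lost without any 1 of wild type replicates 1 and 2 or Tlr3 KO replicates 1, 2 and 3 (adjusted p from 0.0513 to 0.0912), and the Trif call without the 4 arrays in which Y-linked signal exceeded Xist (-1.13, adjusted p = 0.203). Tnfrsf19, a Wnt target of stem cells, differed from wild type by -2.26 in Trif mutants and -1.78 in Tlr3 KO and Smoc2, a matricellular protein of the crypt base, by -1.66 and -1.25, with 0.49 and 0.04 in Tlr4 KO, and Smoc2 stood at -1.04 (adjusted p = 0.0562) in Trif mutants without the Y-signal arrays. Lgr5, the Wnt-linked receptor that defines these cells, differed by -0.96, -1.73 and 0.24. Its Trif call was lost without wild type replicate 1, 2 or 4 or Trif mutant replicate 2 or 3 (adjusted p up to 0.122), and the value was -0.68 (adjusted p = 0.277) without the Y-signal arrays. The list's 15 falls became 9 with normexp, 9 with Xist as a covariate and 4 without those 4 arrays. Myc is a member of this list as well as of the ribosome list.

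Genes of serine synthesis and amino acid supply fell in part. Of 24 measured, 10 fell in both genotypes and 4 rose in both, beside 10.9% and 18.4% of all features. The falls included Phgdh and Psat1, the first steps from glycolysis to serine, at -2.43 and -2.69 in Trif mutants and -1.84 and -1.42 in Tlr3 KO. Slc7a5, a transporter of large neutral amino acids, differed by -2.81 and -1.67. In Tlr4 KO the same 3 genes stood at -0.62, -0.52 and -0.84, and Phgdh stood at -0.99 (adjusted p = 0.123) in Trif mutants without the Y-signal arrays. Stc2, a secreted glycoprotein of this list, was at least 4.7-fold lower in Trif mutants than in wild type, with no mutant array well above background. With normexp its difference changed sign, to 0.47. The 4 rises were Ddit3, Sesn2, Slc3a2 and Cth, of which Ddit3 and Sesn2 are stress-induced. Each lost its Tlr3 KO call with median scaling except Slc3a2, which lost its Trif call with quantile normalization, and without the Y-signal arrays the Trif values were 0.08 (adjusted p = 0.831) for Ddit3 and 0.19 (0.514) for Slc3a2. Sesn2 also lost its Tlr3 KO call without wild type replicate 1 or 3 or Tlr3 KO replicate 3 (adjusted p up to 0.061). The 10 falls became 6 without the 4 arrays in which Y-linked signal exceeded Xist, and 6 with normexp.

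**Figure D2:**
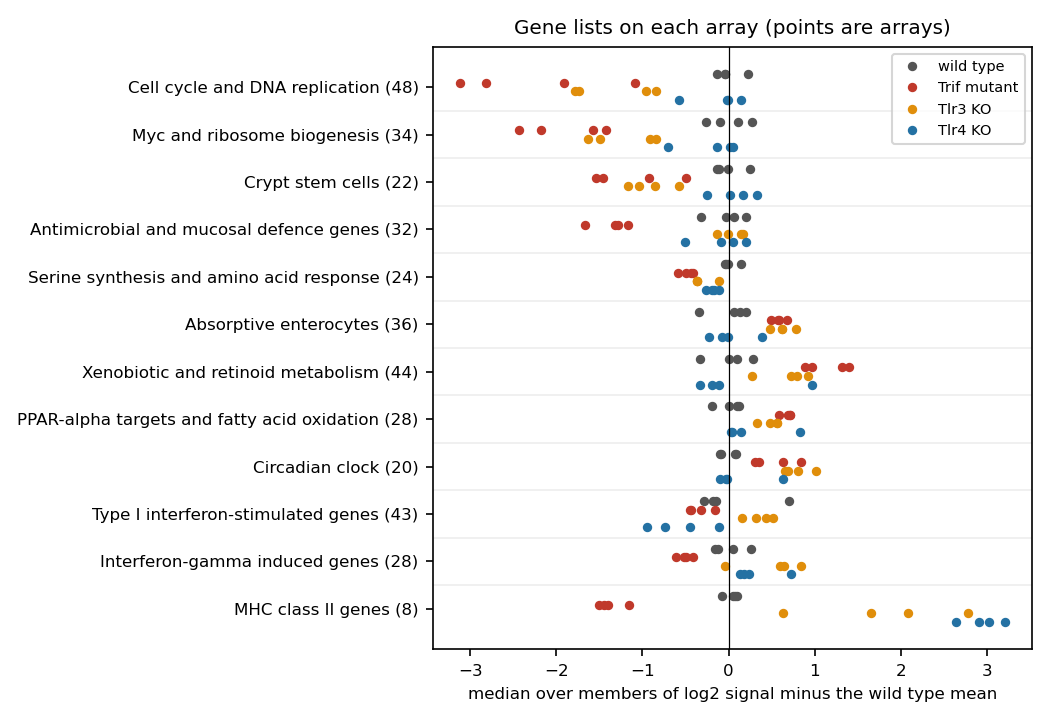
Median over the measured members of 12 gene lists (y axis, members in brackets) of the log2 signal minus the wild type mean (x axis), 1 point for each of the 16 arrays. The cell cycle, ribosome and crypt lists lie below 0 on all 8 arrays of the arm, the absorptive list lies between 0.48 and 0.78 on them, and the MHC class II list separates Trif mutants (-1.51 to -1.15) from Tlr3 KO (0.63 to 2.78).

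Absorptive enterocyte genes moved the other way. Of 36 measured, 21 rose in both genotypes, 19 of them apart from Tlr4 KO, and none fell in both, beside 18.4% of all features that rose in both. The medians were 0.61 in Trif mutants, 0.60 in Tlr3 KO and 0.05 in Tlr4 KO, against 0.19, 0.20 and 0.01 over all features. Slc5a1, the apical sodium-glucose carrier (chr5:33504561-33504620), stood at 6.02, 6.40, 6.60 and 6.20 in wild type, at 7.07, 6.82, 7.07 and 7.01 in Trif mutants, at 7.40, 7.49, 7.34 and 7.34 in Tlr3 KO and at 6.70, 6.55, 6.71 and 7.13 in Tlr4 KO. The arm did not overlap wild type, while the fourth Tlr4 KO array lay between the Trif mutant and Tlr3 KO ranges. The arm's rise was 0.89 ± 0.12 (adjusted p = 6.2e-05). Slc2a2, the basolateral glucose carrier, differed by 0.98 in Trif mutants, 0.74 in Tlr3 KO and -0.04 in Tlr4 KO, Slc15a1, the peptide carrier, by 0.98, 0.82 and -0.15, and Npc1l1, which takes up cholesterol, by 0.98, 0.98 and 0.66. Without the Y-signal arrays the Trif values were 0.70 (adjusted p = 0.0648) for Slc5a1, 0.59 (0.272) for Slc15a1 and 0.33 (0.38) for Npc1l1. The count depended on the processing: 6 rose in both with quantile normalization, 14 with median scaling, 1 with normexp and 2 without the 4 arrays in which Y-linked signal exceeded Xist.

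Genes of epithelial identity were high in every group and rose slightly. Their summed level was 10.37 to 10.76 in wild type, 10.75 to 11.06 in Trif mutants, 10.88 to 11.15 in Tlr3 KO and 10.68 to 10.75 in Tlr4 KO. Of 14 measured, 6 rose in both genotypes and 1, the homeobox gene Cdx1, fell, beside 18.4% and 10.9% of all features. Epcam, an adhesion protein of epithelial cells, differed by 0.65 in Trif mutants and 0.52 in Tlr3 KO, and both calls were lost with quantile normalization (0.37 and 0.26, adjusted p = 0.0523 and 0.18). Without the Y-signal arrays Epcam stood at 0.14 (adjusted p = 0.592) in Trif mutants, and the Cdx1 calls were lost on leaving out any 1 of 5 arrays in Trif mutants (adjusted p up to 0.109) and of 4 in Tlr3 KO (up to 0.0776).

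Xenobiotic and retinoid enzymes rose in both genotypes for 17 of 44 measured, 16 of them apart from Tlr4 KO, beside 18.4% and 10.3% of all features, and none fell in both. Against wild type, 37 of the 44 were higher in Trif mutants and 19 in Tlr3 KO, beside 31.5% and 27.5% of all features. Between the 2 genotypes 6 were higher in Trif mutants and 2 lower, beside 11.5% and 11.2% of all features. The medians were 1.17, 0.72 and 0.10 in Trif mutants, Tlr3 KO and Tlr4 KO. Relative to the wild type mean, the median on the Tlr4 KO arrays was -0.11, -0.19, -0.33 and 0.97, the fourth within the arm's range. Bco1, which cleaves beta-carotene, differed by 1.92, 2.82 and 0.02, and the Trif call was lost without wild type replicate 1 (1.46, adjusted p = 0.0521) and stood at -0.06 without the Y-signal arrays. Rdh7, a retinol dehydrogenase, differed by 2.19, 0.82 and 0.12, its Tlr3 KO call being lost without wild type replicate 1 or 4 or Tlr3 KO replicate 2 (adjusted p up to 0.0655). Cyp2a5, a cytochrome P450, was not well above background on any wild type array and was at least 7.07-fold higher in the arm, measured on 6 of its 8 arrays. Its single calls were lost on leaving out any 1 of 9 arrays in Tlr3 KO (adjusted p up to 0.14) and of 2 in Trif mutants (up to 0.0601). The 17 rises became 6 without wild type replicate 1, 11 without wild type replicate 3, 9 without Tlr3 KO replicate 2 or 3, 27 without Tlr4 KO replicate 4, and 8, 6 and 3 under quantile normalization, median scaling and normexp.

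Targets of PPAR-alpha, with other genes of fatty acid oxidation, rose in both genotypes for 12 of 28 measured, beside 18.4% of all features. Of these, 6 were apart from Tlr4 KO and 4 called in Tlr4 KO too, with list medians of 0.66, 0.51 and 0.26. Relative to the wild type mean, the list's median on the Tlr4 KO arrays was 0.14, 0.04, 0.03 and 0.82. The fourth array lay above every array of the arm, so the Tlr4 KO median rests largely on it. Angptl4, a secreted inhibitor of lipoprotein lipase (chr17:33911880-33911939), stood at 2.04, 3.43, 2.64 and 1.74 in wild type, at 5.35, 5.04, 6.18 and 4.32 in Trif mutants, at 4.52, 4.87, 4.49 and 5.82 in Tlr3 KO and at 5.15, 4.44, 5.41 and 5.91 in Tlr4 KO. All 12 arrays of the 3 lines lay above all wild type arrays and overlapped one another. Its rise in the arm was 2.61 ± 0.39 (adjusted p = 0.00013), and the arm differed from Tlr4 KO by -0.15 (adjusted p = 0.77). Without the Y-signal arrays its Trif rise of 1.86 was not called (adjusted p = 0.0766). Pdk4, which restrains pyruvate oxidation, rose by 2.31 in Trif mutants, 2.16 in Tlr3 KO and 2.27 in Tlr4 KO, where the fourth array stood at 2.80 and the others at 0.53 to 0.78. The list's 12 rises became 7 without wild type replicate 1 or Tlr3 KO replicate 2, 3 without the 4 arrays in which Y-linked signal exceeded Xist, and 6, 5 and 2 under quantile normalization, median scaling and normexp.

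The circadian clock list held both directions. Of 20 measured, 7 rose in both genotypes and 2 fell, beside 18.4% and 10.9% of all features. The medians were 0.51 in Trif mutants, 0.81 in Tlr3 KO and 0.08 in Tlr4 KO. Relative to the wild type mean, the fourth Tlr4 KO array stood at 0.63 and the others at -0.03, -0.10 and -0.015. The rises were Hlf, Dbp and Tef, which bind the D-box, with Per2, Cry2, Nr1d1 and Bhlhe40, which repress the clock's activators. The falls were Arntl, one of those activators (-0.49 and -0.61), and Nfil3, a D-box repressor (-1.16 and -0.90). The Trif call of Arntl was lost on leaving out wild type replicate 1, 2 or 3 or Trif mutant replicate 1, 2 or 3 (adjusted p up to 0.0867). Hlf (chr11:90199978-90200037) stood at -2.43, -2.12, -2.94 and -2.40 in wild type, at 0.46, -0.07, 0.55 and 0.02 in Trif mutants, at 0.45, 0.57, 0.02 and -0.50 in Tlr3 KO and at -2.46, -2.07, -3.14 and -0.81 in Tlr4 KO. The arm genotypes overlapped each other and lay above wild type and above Tlr4 KO, of which replicate 4 was the nearest. Hlf rose by 2.66 ± 0.34 in the arm (adjusted p = 4.3e-05) and was 2.31 above Tlr4 KO (adjusted p = 0.00021).

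Dbp, another D-box activator, stood at 4.62, 4.74, 4.60 and 4.95 in wild type, at 6.18, 5.59, 6.42 and 5.75 in Trif mutants, at 5.92, 6.22, 5.69 and 5.92 in Tlr3 KO and at 4.45, 4.32, 3.64 and 5.88 in Tlr4 KO. The fourth Tlr4 KO array stood with the arm and the other 3 below every wild type array. Dbp rose by 1.23 ± 0.30 in the arm (adjusted p = 0.0034), and in Trif mutants by 1.02 (adjusted p = 0.236) without the 4 arrays in which Y-linked signal exceeded Xist. Without those arrays the Trif values were 0.34 (adjusted p = 0.565) for Per2, 0.46 (0.388) for Cry2, 0.53 (0.139) for Nr1d1, 0.76 (0.133) for Bhlhe40, 0.69 (0.271) for Tef, -0.27 (0.547) for Arntl and -0.88 (0.076) for Nfil3. Then 1 clock gene rose in both genotypes, and 2 did with Xist as a covariate. The time of day at which animals were killed was not given, and its part in these differences was not tested. The E-box CACGTG occurred in 6 of 21 clock promoter windows (28.6%) against 6.02% of all, and the D-box TTATGNAA in 2 (9.52%) against 3.07%. Among windows of the clock genes that moved alike, the E-box occurred in 2 of 9 (22.2%) and the D-box in 0 of 9.

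Genes of the TLR3 and TRIF pathway itself rose in both genotypes at shares near or below that of all features. Among 15 measured sensors and trafficking genes 1 rose in both genotypes, among 20 adaptors and kinases 4, among 16 transcription factors 2 and among 17 inhibitors 2, beside 18.4% of all features, and none of these lists had a member that fell in both. In Tlr3 KO alone 9 of the 16 transcription factors were higher, beside 27.5% of all features, with a median of 0.51 against 0.20 over all features, while in Trif mutants 3 were. For the mean of the arm 9 of 20 adaptors and kinases and 7 of 17 inhibitors were higher, beside 33.9% of all features, with medians of 0.26 and 0.30 against 0.20. Irf3, Tbk1 and Traf3, which carry the signal from TRIF to interferon, were not called in both. The exception by size was Scarf1, a scavenger receptor (chr11:75339784-75339843), which stood at -1.57, -1.85, -1.44 and -1.59 in wild type, -0.06, 0.25, 0.20 and -0.04 in Trif mutants, 0.17, -0.05, 0.11 and 0.22 in Tlr3 KO and -0.23, -0.42, -0.53 and -0.05 in Tlr4 KO. All 3 lines were above wild type, with the fourth Tlr4 KO array inside the arm's range, and the rise was 1.71 ± 0.11 in the arm (adjusted p = 4.6e-07) and 1.31 in Tlr4 KO.

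The adaptors that rose in both were Ticam1 itself, Ikbkg, the regulatory subunit of the IKK complex (0.91 in Trif mutants and 0.58 in Tlr3 KO), Peli1, a ubiquitin ligase (0.53 and 0.54), and Tradd, a death domain adaptor (0.37 and 0.57). Of 3 other Ikbkg probes none was called alike, and the calls of Peli1 and Tradd were lost under median scaling or quantile normalization. On leaving out 1 array the Trif call was lost for any of 3 arrays for Peli1 (adjusted p up to 0.0681) and of 4 for Tradd (up to 0.126), and the Tlr3 KO call for 2 for Peli1 (up to 0.0739). The factors were Relb (0.65 and 0.69) and Nfkb2 (0.61 and 0.55), which pair in the alternative NF-kappaB pathway, and the Tlr3 KO call of Nfkb2 was lost on leaving out any 1 of 4 arrays (adjusted p up to 0.0731). The inhibitors were Tollip (0.78 and 0.81) and Rnf216 (0.71 and 0.38), which dampen Toll-like receptor signalling. However, 2 other Tollip probes were not called alike, nor was any other Rnf216 probe. With median scaling the Tlr3 KO call of Rnf216 was lost (0.15, adjusted p = 0.258). On the 1 Trif mutant array left without the Y-signal arrays the values were 0.21 for Relb, 0.20 for Nfkb2, 0.05 for Tollip, 0.01 for Peli1 and 0.23 for Tradd (adjusted p from 0.489 to 0.98). Of 17 genes of TRIF-linked cell death 3 rose in both (Birc3, at 0.85 and 0.61, Birc2 and Cflar), a share near the 18.4% of all features that did.

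**Figure D3:**
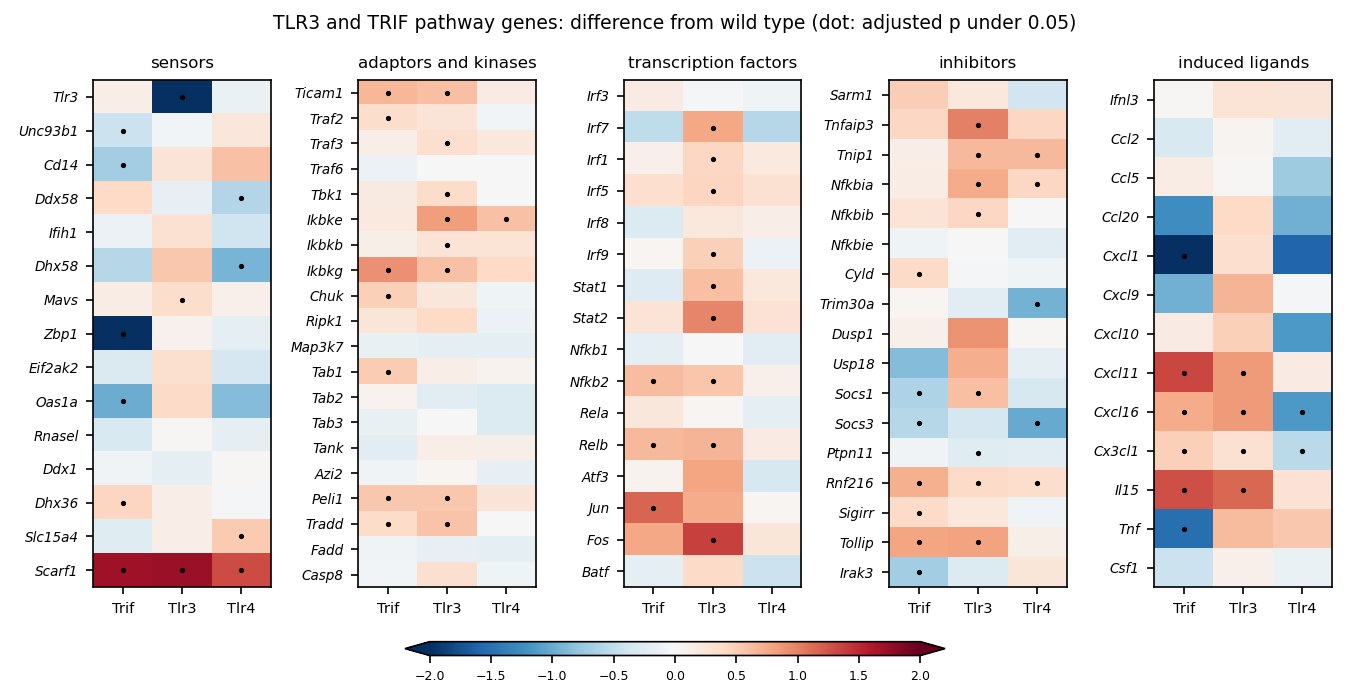
Difference from wild type (log2, colour) in Trif mutants, Tlr3 KO and Tlr4 KO for the measured pathway genes and induced ligands, grouped by role, with a dot where the adjusted p was under 0.05. Apart from Tlr3 in its own knockout, Scarf1, Il15 and Cxcl11 are the strongest shared colours, and few genes carry a dot in both of the first columns.

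Of the interferons and chemokines that TRIF signalling induces, 13 of 20 listed were measured. Of the 13, 4 rose in both genotypes, all 4 apart from Tlr4 KO, beside 18.4% and 10.3% of all features. Il15, a cytokine that sustains intraepithelial lymphocytes (chr8:84858403-84858462), stood at -0.80, -0.23, -0.56 and -0.14 in wild type, at 0.80, 0.85, 0.83 and 0.92 in Trif mutants, at 0.60, 0.98, 0.77 and 0.50 in Tlr3 KO and at -0.40, -0.51, -0.44 and 0.80 in Tlr4 KO. The arm lay above wild type and above 3 of the Tlr4 KO arrays, with a rise of 1.21 ± 0.21 (adjusted p = 0.00035), and without the 4 arrays in which Y-linked signal exceeded Xist its Trif rise of 1.35 was not called (adjusted p = 0.0586). Cxcl11, a ligand of CXCR3, rose by 1.34 in Trif mutants and 0.86 in Tlr3 KO, with no call lost on leaving out any array. Cxcl16, a ligand of CXCR6 (chr11:70269521-70272262), stood at 0.60, 0.75, 0.72 and 0.26 in wild type, at 1.36, 1.32, 1.82 and 0.78 in Trif mutants, at 1.20, 1.92, 1.61 and 0.98 in Tlr3 KO and at -0.78, -0.87, -0.51 and -0.08 in Tlr4 KO. The arm was above wild type and Tlr4 KO below it, without overlap. The arm rose by 0.79 ± 0.21 (adjusted p = 0.0062), Tlr4 KO fell by 1.14 (difference -1.14), and the arm stood 1.93 above Tlr4 KO (adjusted p = 3.6e-05). The Trif value of Cxcl16 was 0.20 (adjusted p = 0.719) without the Y-signal arrays and 0.39 (0.316) with Xist as a covariate, and the arm's call was lost under both (adjusted p = 0.145 and 0.0613). Its Trif call was also lost without wild type replicate 4 (0.63, adjusted p = 0.0645) or Trif mutant replicate 3 (0.57, adjusted p = 0.074), and both single calls were lost with median scaling, while 1 other probe passed in Trif mutants (1.01) but not in Tlr3 KO (0.52, adjusted p = 0.051). Cx3cl1, a membrane-bound chemokine, differed by 0.48, 0.30 and -0.55 in Tlr4 KO, with both arm calls lost under quantile normalization, the Trif call without the Y-signal arrays (0.34, adjusted p = 0.19), and the Tlr3 KO call on leaving out any 1 of 4 arrays (adjusted p up to 0.121).

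Interferon-stimulated genes were not a shared change. Of 43 measured type I genes 3 rose in both, the antiviral genes Mx1, Ifi35 and Trim25, beside 18.4% of all features, and none fell in both. In Trif mutants 14 of the 43 were lower, beside 17.1% of all features, and none was lower in Tlr3 KO. Their medians were -0.41 in Trif mutants, 0.32 in Tlr3 KO and -0.53 in Tlr4 KO, and 23 of the 43 were lower in Trif mutants than in Tlr3 KO, beside 11.2% of all features lower there. Mx1, an antiviral GTPase, stood at -3.42, -3.61, -3.39 and -3.28 in wild type, at -3.01, -1.64, -2.58 and -3.52 in Trif mutants, at -1.44, -1.86, -1.39 and -1.43 in Tlr3 KO and at -2.04, -2.39, -2.19 and -1.83 in Tlr4 KO. Only 1 Trif mutant array, replicate 4, lay within the wild type range. The Trif rise of 0.74 for Mx1 was lost with the slide as a block (adjusted p = 0.0718) and on leaving out any 1 of 13 arrays (up to 0.134), and was -0.09 without the Y-signal arrays, while its other probe was not called in Trif mutants (0.22, adjusted p = 0.423). Without those arrays Ifi35 stood at 0.17 (adjusted p = 0.46) and Trim25 at 0.04 (0.914) in Trif mutants, and the Trif call of Trim25 was lost on leaving out any 1 of 6 arrays (adjusted p up to 0.127). None of the 43 rose in both under quantile normalization or median scaling.

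Among genes called in opposite directions the MHC class II genes stood first. Of 8 measured, 6 fell in Trif mutants and rose in Tlr3 KO, beside 0.21% of all features with that pattern, and 1, H2-Oa, rose in both. The H2-Oa call in Tlr3 KO was lost on leaving out any 1 of 4 arrays (adjusted p up to 0.0855), and its Trif value without the Y-signal arrays was 0.28 (0.491). The list's medians were -1.39 in Trif mutants, 1.80 in Tlr3 KO and 2.92 in Tlr4 KO. H2-Aa, a chain of the antigen-presenting class II molecule, stood at -2.97, -2.71, -3.08 and -2.32 in wild type, at -4.21, -4.78, -4.79 and -4.12 in Trif mutants, at 1.17, -0.08, 0.30 and -1.42 in Tlr3 KO and at 1.77, 1.49, 1.60 and 1.27 in Tlr4 KO. The ranges of Trif mutants, wild type, Tlr3 KO and Tlr4 KO followed one another without overlap. Trif mutants were below Tlr3 KO by -4.47 ± 0.39 (adjusted p = 9.63e-06). Without the Y-signal arrays the Trif difference from wild type was -1.35 (adjusted p = 0.183) for H2-Aa and -1.45 (0.0765) for H2-Ab1. Cd74, the invariant chain, stood at 1.55, 1.16, 1.08 and 1.54 in wild type, at -0.93, -1.88 and -1.37 on 3 Trif mutant arrays, at 4.83, 3.41, 3.64 and 1.98 in Tlr3 KO and at 5.46, 5.19, 5.54 and 4.93 in Tlr4 KO. The spot of the third Trif mutant array was left out as an outlier, and the order of the groups was the same as for H2-Aa.

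Of 28 interferon-gamma induced genes, 16 were lower in Trif mutants than in Tlr3 KO, beside 11.2% of all features. Against wild type, 10 were lower in Trif mutants, beside 17.1% of all features, and 8 higher in Tlr3 KO, a share near the 27.5% of all features. Ubd, a ubiquitin-like protein induced by interferon-gamma, differed by -3.78 in Trif mutants, 1.33 in Tlr3 KO and 2.13 in Tlr4 KO. In the opposite sense, Sst, the hormone somatostatin, differed by 1.66 in Trif mutants and -0.95 in Tlr3 KO, and Nek5, a kinase, by 1.20 and -1.52, with no call of either lost on leaving out any 1 array. Nox4, an NADPH oxidase, gave a difference between both genotypes of 3.13 (adjusted p = 0.000971). Its Trif call was lost with median scaling (1.33, adjusted p = 0.0537), without wild type replicate 1, 2 or 3 or Trif mutant replicate 1 or 3 (adjusted p from 0.0612 to 0.096) and without the Y-signal arrays (0.83, 0.484). Its Tlr3 KO call was lost without wild type replicate 4 or Tlr3 KO replicate 2 (0.0583 and 0.0663), and its other probe, measured on all 16 arrays, differed by 0.95 in Trif mutants and -0.02 in Tlr3 KO (adjusted p = 0.948). The mean of the arm describes none of these genes: for H2-Aa it was 0.53 (adjusted p = 0.21).

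**Figure D4:**
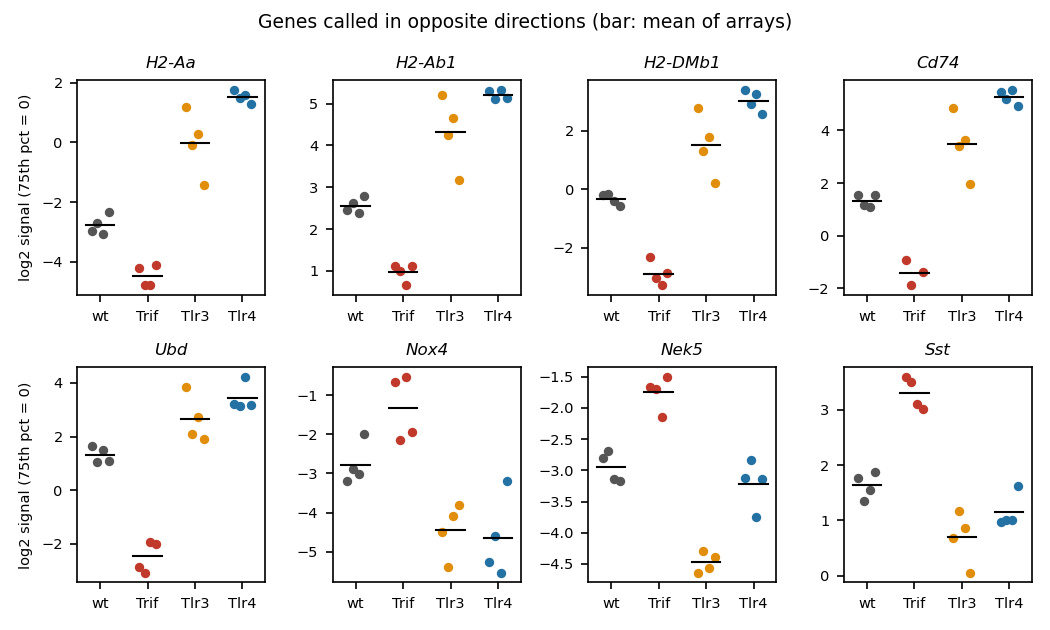
Log2 signal relative to the array's 75th percentile (y axis) of 8 genes called in opposite directions, 1 point for each array and a bar at the mean, for wild type, Trif mutants, Tlr3 KO and Tlr4 KO. H2-Aa, H2-Ab1, H2-DMb1, Cd74 and Ubd are lowest in Trif mutants and above wild type in Tlr3 KO, and Nox4, Nek5 and Sst are highest in Trif mutants and below wild type in Tlr3 KO.

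Antimicrobial and mucosal defence genes were often lower in Trif mutants than in Tlr3 KO. Of 32 measured, 10 fell in both genotypes, all 10 apart from Tlr4 KO, beside 10.9% and 9.68% of all features. Against these 1, the lectin Zg16, rose in both (lost in both with quantile normalization, 0.11 and -0.07), beside 18.4% of all features. In Trif mutants 22 were lower and in Tlr3 KO 10, beside 17.1% and 15.2% of all features. The list's medians were -1.35 in Trif mutants, -0.01 in Tlr3 KO and -0.13 in Tlr4 KO, and 19 of the 32 were lower in Trif mutants than in Tlr3 KO, beside 11.2% of all features. Retnlb, a bactericidal goblet cell protein (chr16:48818874-48818933), stood at 0.92, 0.20, 0.70 and 0.79 in wild type, at -8.84, -8.06, -4.84 and -7.15 in Trif mutants, at -3.28, -4.38, -4.35 and -0.86 in Tlr3 KO and at -0.97, -0.77, -0.66 and -2.12 in Tlr4 KO. It was well above background on 1 Trif mutant array of 4, all 8 arrays of the arm lay below wild type, and the fourth Tlr3 KO array lay within the Tlr4 KO range. The arm's difference was -5.87 ± 0.70 from wild type (adjusted p = 2.8e-05) and -4.09 from Tlr4 KO (adjusted p = 0.00053), with Trif mutants below Tlr3 KO by -4.00 ± 0.81 (adjusted p = 0.0033).

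Pla2g5, a secreted phospholipase (chr4:138355365-138355424), stood at 3.15, 1.93, 3.02 and 2.89 in wild type, at -4.52, -5.85, -5.09 and -4.04 in Trif mutants, at 1.02, -0.81, 0.42 and 1.85 in Tlr3 KO and at 2.75, 2.56, 2.52 and 1.17 in Tlr4 KO. Trif mutants stood apart from every other array, and Tlr3 KO lay between them and wild type. Its difference from wild type was -7.62 in Trif mutants, -2.13 in Tlr3 KO and -0.50 in Tlr4 KO. Mmp7, the protease that activates Paneth cell defensins, differed by -2.86, -1.55 and 0.10, Pla2g2a, a bactericidal phospholipase, by -2.34, -1.74 and 0.06, and Lyz1, Paneth cell lysozyme, by -1.23, -2.18 and -0.56, its Trif call being lost on leaving out any 1 of 4 arrays (adjusted p up to 0.0998) and without the Y-signal arrays (-1.07, 0.285). The alpha-defensins themselves, 11 of 17 listed being measured, held no shared call. In Tlr3 KO 9 were lower and 2 higher, beside 15.2% and 27.5% of all features. In Trif mutants 8 of the 11 were higher than in Tlr3 KO, beside 11.5% of all features. Defa5 differed by -0.57 (adjusted p = 0.24) in Trif mutants and -2.02 in Tlr3 KO. Lcn2, an iron-sequestering protein, was at least 3.79-fold lower in Trif mutants, with the sign of its difference turning with normexp (0.42), and its Tlr3 KO call was lost on leaving out any 1 of 10 arrays (adjusted p up to 0.151). The 10 falls became 6 without wild type replicate 1, wild type replicate 2 or Trif mutant replicate 2, 6 with Xist as a covariate and 5 without the 4 arrays in which Y-linked signal exceeded Xist.

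The largest shared rises apart from Tlr4 KO included those of Afm and Mrc1. Afm, a vitamin E binding protein known from liver (chr5:90982490-90982549), stood at -4.37, -4.34, -4.33 and -3.94 in wild type, at -0.66, -0.74, -0.20 and 0.15 in Trif mutants, at -1.12, -1.06, -0.61 and -1.15 in Tlr3 KO and at -5.10, -4.69, -6.09 and -4.77 in Tlr4 KO. The arm lay more than 2 units above both other genotypes, and the fourth wild type array was the highest of its group. Its rise was 3.57 ± 0.24 (adjusted p = 7.1e-07), and the arm was 4.49 ± 0.24 above Tlr4 KO (adjusted p = 3.5e-08), though 1 other Afm probe was not called. Mrc1, the mannose receptor of macrophages (chr2:14253304-14253363), stood at -5.47, -4.79, -4.87 and -4.50 in wild type, at -2.26, -2.06, -0.61 and -2.10 in Trif mutants, at -2.59, -1.71, -1.84 and -2.93 in Tlr3 KO and at -5.27, -5.83, -4.73 and -3.81 in Tlr4 KO. The arm did not overlap the others, and its rise of 2.89 ± 0.38 (adjusted p = 5.9e-05) compared with -0.00 in Tlr4 KO. Mt1, a metallothionein, rose by 2.17 and 1.27 against -0.03 in Tlr4 KO, Sardh, which oxidises sarcosine, by 2.11 and 1.39 against -0.65, and Nt5e, which makes adenosine, by 2.32 and 1.89 against 0.43. Without the Y-signal arrays Nt5e stood at 0.88 (adjusted p = 0.283) in Trif mutants.

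Other macrophage markers gave no single direction. Of 17 measured macrophage and dendritic cell genes, 2 rose in both genotypes (Mrc1 and Csf1r) and 2 fell (Lyz2 and Itgam), beside 18.4% and 10.9% of all features. The list's summed level was 5.84 to 6.45 in wild type, 5.19 to 5.77 in Trif mutants, 5.05 to 5.46 in Tlr3 KO and 5.28 to 6.16 in Tlr4 KO. The median difference of its members from wild type went the other way, at 0.14 in Trif mutants and 0.38 in Tlr3 KO. The Tlr3 KO call of Csf1r was lost on leaving out any 1 of 11 arrays (adjusted p up to 0.132) and the Trif call of Lyz2 for any 1 of 4 (up to 0.103). Adgre1, the F4/80 antigen, differed by 0.03 and -0.14, and none of the immune, stromal, endothelial or erythroid lists had more than 2 members that rose in both. Of intraepithelial T and NK cell genes 1 of 22 rose in both (6 without Tlr3 KO replicate 4), with summed levels of 3.95 to 4.82 in wild type, 3.91 to 4.80 in Trif mutants, 3.87 to 4.95 in Tlr3 KO and 3.45 to 4.05 in Tlr4 KO. Of 14 fibroblast and smooth muscle genes none was called in both. Their summed levels were 5.53 to 5.89, 6.13 to 6.33, 5.98 to 6.50 and 5.34 to 5.90 in the same order, so that the sum was higher on all 8 arrays of the arm. Relative to the wild type mean, the list's median overlapped between wild type (-0.12 to 0.06) and Trif mutants (0.002 to 0.68), but not between wild type and Tlr3 KO (0.29 to 0.82). The part of this list in the results was not tested.

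Some shared rises were called in Tlr4 KO as well. Lrmda, which takes part in melanocyte differentiation (chr14:23875226-23875285), stood at -5.36, -5.83, -6.09 and -4.90 in wild type, at -2.23, -2.44, -2.12 and -2.03 in Trif mutants, at -1.94, -2.03, -1.65 and -2.54 in Tlr3 KO and at -1.13, -1.71, -1.75 and -1.64 in Tlr4 KO. The 12 arrays of the 3 lines lay above wild type, which was well above background on 3 of 4 arrays, by 3.34, 3.50 and 3.99. Trpc1, a cation channel (2.76, 3.04 and 2.99), was well above background on 2 wild type arrays, and 1 of its other probes was not called (0.06 in Trif mutants and 0.02 in Tlr3 KO), while without the Y-signal arrays its Trif rise of 2.27 was not called (adjusted p = 0.0889). Klkb1, plasma prekallikrein, rose by 2.62, 2.19 and 1.49 and Krt12, a keratin, by 1.71, 2.87 and 2.00. Cxcr4, Hoxc10, Slc4a11, Abca8b, Synb and Prkag3 were not well above background on any wild type array, and the arm stood at least 2.46-fold, 2.84-fold, 2.9-fold, 3.8-fold, 3.7-fold and 2.84-fold higher (adjusted p from 2.78e-05 to 0.00241). Of these, Hoxc10 was called in Tlr4 KO, a call lost on leaving out any 1 of 5 arrays (adjusted p up to 0.11). Synb and Prkag3 stood apart from Tlr4 KO, and Cxcr4, Slc4a11 and Abca8b were neither called in Tlr4 KO nor called between the arm and Tlr4 KO. Without the Y-signal arrays the Trif calls of Cxcr4, Slc4a11 and Abca8b were lost (adjusted p = 0.4, 0.23 and 0.23).

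Falls shared with Tlr4 KO were few. Cpn2, a subunit of carboxypeptidase N (chr16:30256894-30256953), stood at 1.22, 0.02, 1.32 and 1.11 in wild type, at -5.07, -5.16, -3.04 and -3.53 in Trif mutants, at -1.17, -2.29, -1.09 and -1.0 in Tlr3 KO and at -1.25, -1.50, -1.90 and -2.54 in Tlr4 KO. All 3 lines were below wild type, the receptor lines overlapped each other, and Trif mutants lay below both. The differences were -5.12, -2.30 and -2.72, and Trif mutants were below Tlr3 KO by -2.82 ± 0.48 (adjusted p = 0.00116). Rpp40, a subunit of ribonuclease P, gave different results by probe. The probe used stood at -3.77 in Trif mutants, where 1 of 4 arrays was well above background, -1.65 in Tlr3 KO and 0.03 in Tlr4 KO, whereas its other probe stood at -1.60, -1.13 and -2.46 (adjusted p = 1.41e-05 in Tlr4 KO). B3gnt5, which starts lacto-series glycolipids, was a fall apart from Tlr4 KO. It was at least 6.02-fold lower in Trif mutants than in wild type, with none of the 4 arrays well above background, and normexp turned the sign of its Trif difference (0.27).

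**Figure D5:**
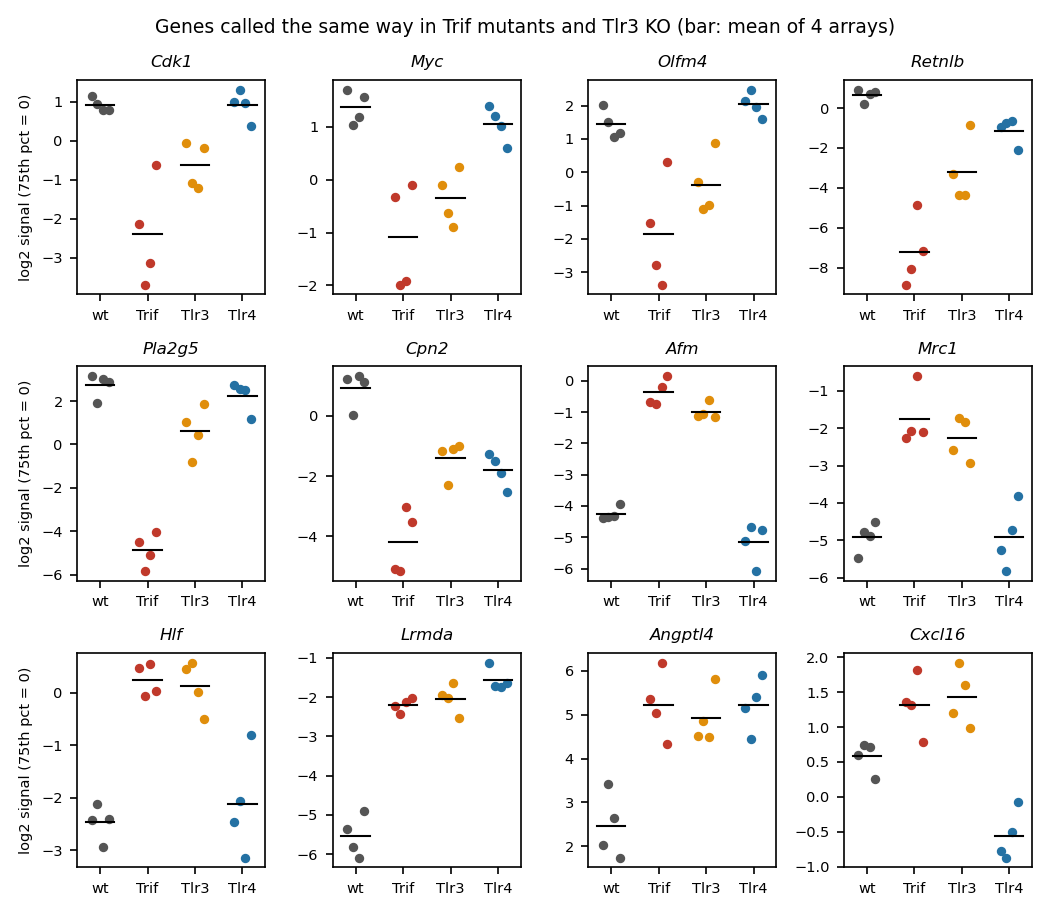
Log2 signal relative to the array's 75th percentile (y axis) of 12 genes called the same way in Trif mutants and Tlr3 KO, 1 point for each array and a bar at the mean of 4 arrays. Cdk1, Myc, Olfm4 and Pla2g5 are low in the arm and near wild type in Tlr4 KO, Afm, Mrc1 and Hlf are high in the arm only, and Lrmda and Angptl4 are high in all 3 lines.

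Secretory lineages gave no common direction. Goblet cell genes fell in both genotypes for 6 of 25 and rose for 2, beside 10.9% and 18.4% of all features, and Ccl9, a chemokine, differed by -2.0 in Trif mutants and -1.57 in Tlr3 KO. Paneth genes other than defensins fell for 5 of 19 and rose for 2. Tuft cell genes were higher in Trif mutants for 20 of 24 and in Tlr3 KO for 2, beside 31.5% and 27.5% of all features. Both of the latter were shared (6 without Tlr3 KO replicate 4 and 0 without Tlr3 KO replicate 2 or 3). In Trif mutants 16 of 24 were higher than in Tlr3 KO, beside 11.5% of all features. Enteroendocrine genes were higher in Trif mutants for 19 of 31 and lower for 4, and in Tlr3 KO higher for 2 and lower for 8. In both genotypes 4 fell and 2 rose, beside 10.9% and 18.4% of all features. In Tlr4 KO 13 were lower, beside 3.49% of all features. Of the 31, 19 were higher in Trif mutants than in Tlr3 KO, beside 11.5% of all features.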

How the data were processed

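Single-colour Agilent arrays were scanned and extracted with Feature Extraction 10.7.3.1, per the file headers. The deposited gProcessedSignal is a linear intensity, background-subtracted by that software, per the file headers, and the authors' deposited value table, used as an alternative after taking log2, holds the same signals as linear intensities, multiplied by 1 factor per array to a 75th percentile of about 1500 and with a floor of 15. Gene names came from the array files, updated through RefSeq for 26792 probes. From the intensities, spots were averaged per probe (control spots and outlier-flagged spots left out), put on the log2 scale and reduced by each array's 75th percentile. Probes that at least 4 of 16 arrays measured well above background were kept (29367 of 41174, 71.3%), and 1 probe per gene, that with the highest mean, gave 20033 features. R 4.3.3 and limma 3.58.1 fitted group means over the 16 arrays (lmFit, contrasts.fit, eBayes), with Benjamini-Hochberg adjustment over all features. The MyD88 KO arrays, on other slides, entered only an alternative. Shared calls were features called in Trif mut and in Tlr3 KO with the same sign.

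The members and the gene lists were chosen with earlier results of these data known, and no list was given a test. Genes named were those with a standard symbol, off chromosome Y: the targeted genes, then, among shared calls without overlap between the arm and wild type, the 15 rises and 15 falls with the largest smaller change, the 10 of each that also stood most apart from Tlr4 KO and the 5 of each also called there, the genes most opposite, and up to 4 for each list. Lgr5, Adgre1, Irf3, Tbk1, Traf3, Bub1, Ccnb2, Cenpe, Ttk, Polr1c, Odc1, Defa5, the remaining clock genes, the 4 rises of the serine list and Zg16 were named after their values were seen. An "at least" fold sets the bright group's mean against the lowest signal well above background, or the dim probe's own if higher, on each array.

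The number of arrays limits the precision, with 4 animals per genotype. On simulated data the fit recovered, of 50 features each changed by 0.5, 1, 2 and 3, 23, 42, 50 and 50 in the arm comparison (19835 features, 3 of 168 calls false), and 10, 35, 43 and 49 as shared calls. Only those features were changed, with independent noise and no slide or sex differences, whereas 51.1% of features were called in the data. The adjusted threshold therefore differs, and these rates need not hold for the data. Replicate numbers equal slides per the file headers. Deviations from group means correlated between same-numbered arrays at 0.33, 0.17, 0.22 and 0.12 for wild type and Trif mut, at 0.42, 0.22, 0.20 and 0.20 for wild type and Tlr4 KO, and at 0.30, 0.36, 0.06 and -0.12 for wild type and Tlr3 KO. An array of another number matched wild type better only for number 3 in Trif mut (0.23) and number 4 in Tlr3 KO (0.15). Between the mutant lines the same-number correlations ran from -0.22 to 0.33, so the numbers paired the arrays only in part. Promoter windows came from RefSeq on GRCm38.p6, and probe positions are on mm9 as in the files.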

Additional observations from a re-analysis of the deposited data

Results flagged for a closer look

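Of 236 groups of 4 arrays (59 genes in 4 genotypes), 20 held an array whose gap to the nearest of the others took up more of the group's range than Dixon's limit for 4 samples, which chance passes in about 1 group of 20. Values are log2 signals, with the range of the other 3 arrays. Tlr4 KO replicate 4 stood apart for Pdk4 (2.80 against 0.53 to 0.78), Mt1 (4.45 against 3.53 to 3.59), Sst (1.62 against 0.97 to 1.01), Pla2g5 (1.17 against 2.52 to 2.75), Tmed6 (-2.73 against -1.88 to -1.79) and Steap1 (-0.15 against 0.83 to 0.87). Trif mutant replicate 4 stood apart for Ticam1 (1.67 against 2.15 to 2.23), Synb (-5.76 against -4.49 to -4.32), Rps6ka6 (-5.73 against -8.09 to -7.78) and Gpr22 (-5.67 against -6.52 to -6.41). Tlr4 KO replicate 3 stood apart for Tlr3 (-1.33 against -1.70 to -1.65) and Ubd (4.22 against 3.15 to 3.21). Wild type replicate 4 stood apart for Afm (-3.94 against -4.37 to -4.33). Trif mutant replicate 3 stood apart for Mrc1 (-0.61 against -2.26 to -2.06). Tlr3 KO replicate 4 stood apart for Klkb1 (-3.12 against -3.84 to -3.83). Tlr4 KO replicate 1 stood apart for Slc4a11 (-7.79 against -6.22 to -5.90). Wild type replicate 1 stood apart for Ccl24 (-1.68 against -0.60 to -0.51). Tlr3 KO replicate 3 stood apart for Shisa2 (-2.89 against -2.06 to -1.98). Wild type replicate 2 stood apart for Cpn2 (0.02 against 1.11 to 1.32). Tlr3 KO replicate 2 stood apart for Cpn2 (-2.29 against -1.17 to -1.0).

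The change from wild type differed between Trif mutants and Tlr3 KO for 22 of the 59 genes, beside 22.7% of all features. The test was limma's for the difference between both genotypes, which cancels the shared wild type arrays. Tlr3 is the deleted gene. Nox4, Nek5, Fras1, Shisa2, Sst, Cd74, H2-DMb1, H2-Aa, H2-Ab1 and Ubd were named because they were called in opposite directions. The presence of these genes among the 22 therefore follows from the choice. Where no array of 1 genotype was well above background only a bound is given: Trif mutants were at least 62.6-fold above Tlr3 KO for Tlr3 (adjusted p = 1.06e-13) and at least 1.53-fold below it for B3gnt5 (adjusted p = 0.0469). Trif mutants stood above Tlr3 KO (log2 difference ± SE) for Plk5 (1.52 ± 0.28, adjusted p = 0.00176), Tafa3 (1.31 ± 0.32, adjusted p = 0.0104), Nox4 (3.13 ± 0.52, adjusted p = 0.000971), Nek5 (2.72 ± 0.19, adjusted p = 7.78e-07), Fras1 (3.18 ± 0.34, adjusted p = 3.75e-05), Shisa2 (2.10 ± 0.22, adjusted p = 2.77e-05) and Sst (2.61 ± 0.23, adjusted p = 7.97e-06). They stood below Tlr3 KO for Krt12 (-1.15 ± 0.26, adjusted p = 0.00666), Retnlb (-4.00 ± 0.81, adjusted p = 0.0033), Cpn2 (-2.82 ± 0.48, adjusted p = 0.00116), Pla2g5 (-5.49 ± 0.53, adjusted p = 1.8e-05), Rpp40 (-2.12 ± 0.45, adjusted p = 0.00435) and Steap1 (-2.48 ± 0.39, adjusted p = 0.000671). The same held for Cdk1 (-1.77 ± 0.50, adjusted p = 0.0211), Moxd1 (-1.69 ± 0.37, adjusted p = 0.00498), Cd74 (-4.86 ± 0.47, adjusted p = 2.67e-05), H2-DMb1 (-4.39 ± 0.40, adjusted p = 1.01e-05), H2-Aa (-4.47 ± 0.39, adjusted p = 9.63e-06), H2-Ab1 (-3.35 ± 0.30, adjusted p = 1e-05) and Ubd (-5.11 ± 0.40, adjusted p = 2.47e-06). In Trif mutants Retnlb and Rpp40 were well above background on 1 of 4 arrays and Pla2g5 on 3, so those differences rest in part on arrays near background.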

How the results depend on the processing

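The number of animals limits each comparison, and dim genes have little precision. Among 500 results on named genes 451 were called, and the calls lost were 38 with median scaling, 35 with quantile normalization, 57 with Xist as a covariate, 98 without the 4 arrays in which Y-linked signal exceeded Xist (which leaves 1 Trif mutant array), 207 with normexp, 17 with no filter on dim probes, 5 with the deposited value table and from 4 to 40 on leaving out 1 array. The cause of each loss was not tested.

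With normexp the counts of called features were 4112 for the arm, 4515 for Trif mutants, 2613 for Tlr3 KO, 516 for Tlr4 KO, 3068 for the arm against Tlr4 KO, 1028 for Trif mutants against Tlr3 KO, 1936 shared, 1124 of them apart from Tlr4 KO, 465 apart from it in each genotype, 340 in Tlr4 KO too and 17 opposite. In the same order, a tested log2 change of at least 1 left 146, 441, 227, 40, 71, 98, 31, 3, 1, 2 and 0 (limma's treat, against 134 opposite features by the standard test). No filter left 89 opposite. With Xist as a covariate there were 6304 for Trif mutants, 5831 for the arm against Tlr4 KO, 3778 shared, 2157 apart and 1325 apart in each genotype. Without the 4 arrays in which Y-linked signal exceeded Xist these were 3790, 5970, 1847, 1151 and 637, with 2425 for Trif mutants against Tlr3 KO and 637 shared with Tlr4 KO, and the shared calls held 1739 of the 5864.

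Of the arm's calls 66.4% were higher, against 53.6% with quantile normalization, 44.8% with median scaling and 54.0% with normexp. Of shared calls 62.7% were rises, against 47.7%, 36.8% and 43.0%, and of those apart from Tlr4 KO 51.6%, against 33.7%, 23.2% and 20.8%.

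Leaving out 1 array gave 8218 to 10885 for the arm, 8220 to 10160 for Trif mutants, 6549 to 9285 for Tlr3 KO, 2079 to 3350 for Tlr4 KO, 6995 to 10100 for the arm against Tlr4 KO, 3316 to 4887 for Trif mutants against Tlr3 KO, 4327 to 6526 shared, 2900 to 4701 apart, 1115 to 1729 in Tlr4 KO too, 85 to 161 opposite (85 without wild type replicate 1) and 1453 to 3561 apart in each genotype. The last was 1453 without Tlr3 KO replicate 2, 1732 without Tlr3 KO replicate 3, 1814 without Tlr4 KO replicate 1 and 1550 without Tlr4 KO replicate 2, against 2837.

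Ticam1 was not called with normexp in Trif mutants (0.51) or Tlr3 KO (0.61), nor at a change of at least 1 (0.67, 0.61 and 0.64 for the arm). On leaving out arrays its rise was 0.27 to 0.80 in Trif mutants, 0.56 to 0.68 in Tlr3 KO and 0.43 to 0.71 in the arm, the lowest without the 4 arrays above.

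With the slide as a replicate block 6375 features were shared, 5734 of them among the 5864, and 4408 stood apart from Tlr4 KO. That block ended the calls of Mx1 in Trif mutants (0.74, adjusted p = 0.0718) and Vwf in Tlr3 KO (-0.49, adjusted p = 0.0622), ended no other of the 451, and added 3 calls of the arm against Tlr4 KO (Cxcr4, Slc4a11 and Cpn2).

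Normexp turned the sign in Trif mutants of Rps6ka6 (0.17), Zbed3 (0.35), B3gnt5 (0.27), Kif26b (0.42), Klhl23 (0.0911), Gpr22 (0.27), Stc2 (0.47), Lcn2 (0.42), Insm1 (0.53) and Vwf (0.39), in the arm of Zbed3 (0.0276), Kif26b (0.0897), Stc2 (0.16), Lcn2 (0.16), Insm1 (0.18) and Vwf (0.13), and in Tlr4 KO of Afm (0.10) and Stc2 (0.10). Leaving out the 4 arrays turned Mx1 (-0.0922) and Bco1 (-0.0589) in Trif mutants.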
